A study of Mus musculus with 11 samples.

Results

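MicroRNAs numbered miR-680 to miR-721 and miR-1186 to miR-1199 entered the mouse catalogue mostly through small-RNA cloning and early sequencing, and on the liver bead chip they made up 53 of the probes, beside 602 others. They were taken by number alone, any arm included, with miR-708, miR-1193 and miR-1197 left out. The numbers below miR-700 gave 21 members, those from miR-700 to miR-721 gave 21 more and the block from miR-1186 gave 11. Total RNA came from livers of 6 LivPGC-1β mice, which overexpress the coactivator PGC-1β in the liver, and of 5 wild type (WT) mice, all of the FVB/N strain (FVBN in the labels), 4 months old and fasted overnight. Each array held the RNA of 1 mouse. The transgenic mice came from an existing line, for which the methods name no promoter. No source used here gives their sex, and the LivPGC-1β and WT mice lay on different positions of 1 chip, so that position and genotype cannot be told apart.

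A microRNA is cut from a hairpin precursor by Drosha and Dicer, is loaded into an Argonaute protein and pairs with target messengers mainly through its seed, the bases from the second to the eighth. Many entries of this number range are found in the mouse alone, and their sequences often overlap repeats, messengers or structural RNA. In mouse, miR-709, miR-1186, miR-1195 and miR-1196 resemble the B1 short interspersed repeat, as does miR-706, while miR-720 matches a transfer RNA and miR-712 the spacer of the ribosomal RNA precursor. For such entries a probe cannot by itself tell a processed microRNA from a fragment of the longer RNA.

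Mature sequences from RefSeq (GRCm38.p6) could be matched to 38 of the 53 members, 31 of them without doubt about the arm and 7 with both arms listed and the arm on the chip not given. The sequences below are those of the members on which the results turn. They are written 5′ to 3′, and the capitals mark the seed. The first set holds the member called different between the genotypes, those of the next lowest p that have a RefSeq sequence, and the second arm of miR-693 for comparison.

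miR-1195: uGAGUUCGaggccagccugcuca

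miR-706: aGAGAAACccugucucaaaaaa

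miR-702-5p: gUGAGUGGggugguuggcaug

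miR-702-3p: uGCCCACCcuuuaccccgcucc

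miR-691: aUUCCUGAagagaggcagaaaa

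miR-693-5p: cAGCCACAuccgaaaguuuuc

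miR-693-3p: gCAGCUUUcagauguggcuguaa

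The second set holds members that stood high on a single array, and miR-690, known in mouse as a cargo of macrophage exosomes.

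miR-690: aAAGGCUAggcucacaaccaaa

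miR-692: aUCUCUUUgagcgccucacuc

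miR-686: aUUGCUUCccagacggugaaga

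miR-1187: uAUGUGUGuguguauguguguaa

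miR-703: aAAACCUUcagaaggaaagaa

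miR-719: aUCUCGGCuacagaaaaauguu

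miR-707: cAGUCAUGccgcuugccuacg

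No 2 of these sequences share a seed. Among the 31 members with a clear sequence, 4 have a seed that another mouse microRNA in RefSeq also carries, and miR-721 (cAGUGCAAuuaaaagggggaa) has that of miR-130a, miR-130b, miR-130c and miR-301a, a family of conserved microRNAs. The longest run shared by a pair of the 31 was 8 bases, between miR-710 and miR-711.

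The 38 members with a sequence lie at 42 loci, of which 27 are inside the span of a protein-coding gene, 3 inside a pseudogene and 11 inside no other gene. Whether a locus is exonic or intronic was not read, since no exon table was used here. The mature sequence of miR-1195 lies at chr17:70860558-70860580 on the minus strand, in no annotated gene. That of miR-706 lies at chr6:120034290-120034311 on the minus strand in Wnk1, which encodes a kinase that regulates ion transport. The miR-702 hairpin is at chr5:136991433-136991541 in Plod3, which encodes a collagen lysyl hydroxylase. The miR-690 hairpin is at chr16:28599935-28600043 in Fgf12. The 2 arms of miR-693 come from chr17:46231531-46231619 in Xpo5, the gene of the exportin that carries microRNA precursors out of the nucleus. The miR-686 hairpin is at chr14:54616677-54616785 in Psmb5, which encodes a catalytic proteasome subunit. Of the 3 loci of miR-692, 1 at chr4:125504749-125504857 lies in the ferritin light chain pseudogene Ftl2-ps within Grik3, and another at chr13:74407121-74407141 lies in Ftl1-ps1, also a ferritin light chain pseudogene. The hairpin of miR-707 is at chr7:44849699-44849771 in Akt1s1, which encodes an mTORC1 inhibitor, and that of miR-719 at chr14:60228806-60228915 in Nupl1, which encodes a nucleoporin. The hairpin of miR-1188, at chr12:109611822-109611941, lies in the long noncoding RNA Rian of the imprinted Dlk1-Dio3 region.

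To see how often these letters occur in promoters, every 16-base window of the 31 clear sequences was looked for by exact match. The search covered both strands of 32851 RefSeq promoters (250 bases before to 50 after each gene's start). The rest of the genome was not searched, so the counts do not show how common a sequence is in the mouse. For 20 of the 31 no window was found in any promoter. Windows of miR-706 were in 34 promoters (0.1035%), and its first 16 bases, AGAGAAACCCUGUCUC, in 28 of them. Windows of miR-1187 were in 25 promoters (0.0761%) and those of miR-1195 in 11 (0.03348%), where UGAGUUCGAGGCCAGC was in 8. For the 8 other members the count was 1 or 3.

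Intensities, the mean bead brightness of a probe, were quantile normalized over all probes and the 11 arrays and set on the log2 scale. Arrays correlated with each other at 0.940 to 0.995, and probes detected (detection p of 0.01 or less) numbered 444 to 508 on the LivPGC-1β arrays and 467 to 494 on the WT arrays. LivPGC-1β 2 had the lowest median intensity before normalization, 619. The 5 hepatocyte microRNAs listed as markers were detected on every array, with a summed intensity of 79154 to 82287 in LivPGC-1β and 79784 to 81516 in WT livers. Of the 7 striated muscle microRNAs, 1 was detected on every array and each on at least 1, and their summed intensity ran from 2730 to 7168 in LivPGC-1β and from 2537 to 46391 in WT livers. In such tissue RNA, fewer cells of a type and less RNA per cell cannot be told apart.

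The members and the other probes were first set side by side by detection, with no test. Of the 53, 28 (52.8%) were detected on every array, against 403 of the 602 other probes (66.9%), while 8 (15.1%) were detected on none, against 92 (15.3%). The 8 were miR-680, miR-687, miR-688, miR-695, miR-698, miR-710, miR-711 and miR-1188, and their values lay between 7.87 and 8.30 on every array. The remaining 17 were detected on 1 to 10 arrays.

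**Figure D1:**
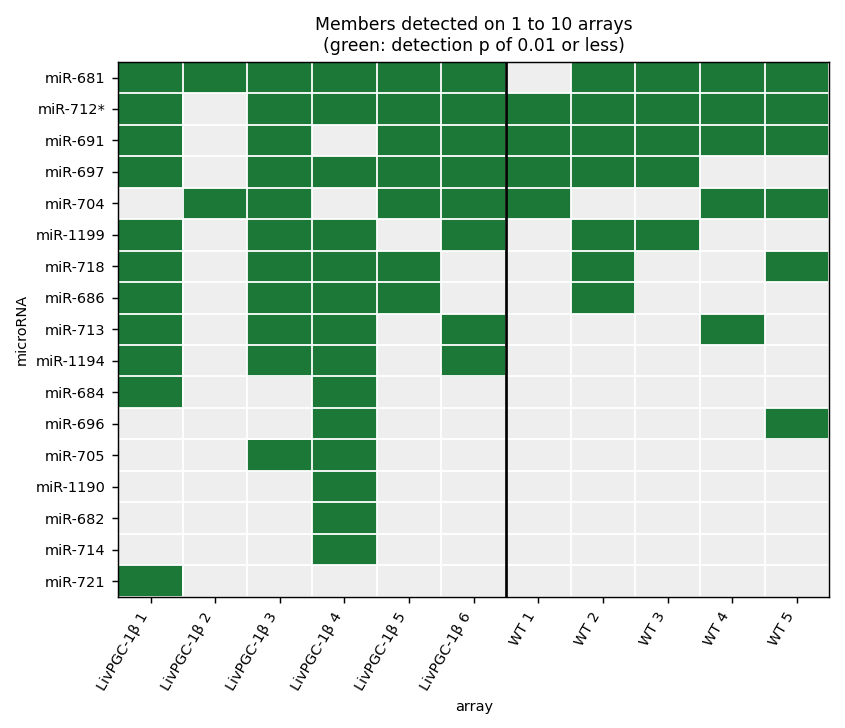
Detection of the 17 members found on 1 to 10 arrays, 1 microRNA a row and 1 array a column, with green for a detection p of 0.01 or less and LivPGC-1β arrays left of the line. LivPGC-1β 4 has 14 green cells and LivPGC-1β 2 has 2.

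Among these 17 members, miR-681 and miR-712* were detected on 10 arrays, miR-691 on 9, miR-697 on 8, miR-704 on 7, miR-1199 and miR-718 on 6, and miR-686 and miR-713 on 5. The other 8 were found on fewer than 5 arrays and were not tested. Of those 8, miR-1194, miR-684, miR-705, miR-1190, miR-682, miR-714 and miR-721 were detected in LivPGC-1β livers alone, and miR-696 in 1 liver of each genotype. No such count was made for the other probes. Before normalization the lowest detected intensity was 328 to 365 on LivPGC-1β arrays and 349 to 434 on WT arrays. Thus miR-721 was detected at 376 in LivPGC-1β 1 and not detected at 421 in WT 1. The part of this in the detection by genotype was not tested. Of the 17, LivPGC-1β arrays 1 to 6 detected 11, 2, 11, 14, 7 and 8, against 4, 7, 5, 5 and 6 on WT arrays 1 to 5. LivPGC-1β 2 thus detected fewer than any WT array, and LivPGC-1β 4, on which miR-1190, miR-682 and miR-714 were detected and nowhere else, the most.

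Of the members seen in LivPGC-1β livers alone, miR-1194 was detected in 4 of 6 LivPGC-1β and in 0 of 5 WT livers. Its values were 8.47, 8.50, 8.60, 9.42, 8.36 and 8.51 on the LivPGC-1β arrays, against 8.42, 8.40, 8.32, 8.22 and 8.56 on the WT arrays, and the groups overlapped. The mean of its LivPGC-1β arrays was 1.10-fold above a WT floor. For each WT array the floor was the higher of its lowest detected signal and the probe's own value. The LivPGC-1β mean included LivPGC-1β 2 and 5, on which miR-1194 was not detected, so the ratio is no lower bound. miR-1194 was not tested. The ratio rested on LivPGC-1β 4: without that array the mean of the LivPGC-1β arrays was 8.49, against a WT floor of 8.502. That ratio, like that of the other 6 members, lay under 1.

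The comparison of the genotypes asks which hepatic microRNAs differ when PGC-1β is overexpressed in the liver. With detection on at least 5 of 11 arrays required, 37 members could be compared among 493 probes. A single member, miR-1195, passed an adjusted p under 0.05 from limma, with Benjamini-Hochberg adjustment over the 493 probes: 1 of 37 members (2.70%), where 10 of all 493 probes (2.03%) did. At an unadjusted p under 0.05, 5 members (13.5%) were higher in LivPGC-1β livers, where 10.1% of all probes were, and 0 were lower, where 2.43% of all probes were. These counts followed the scaling. Without normalization 0 members were higher and 5 lower, where 6 and 80 of all probes were, and with cyclic loess 2 were higher and 2 lower, where 38 and 44 of all probes were. In 1 member all LivPGC-1β arrays lay above all WT arrays, which held for 3.45% of all probes. The median difference (LivPGC-1β minus WT) of the 37 was 0.04, against 0.01 over the 493 probes, and 23 (62.2%) lay above 0, against 264 of 493 (53.5%). Above 0 lay 12 of the 37 without normalization (median −0.11), 18 with cyclic loess and 27 with scaling to the array median (median 0.14).

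**Figure D2:**
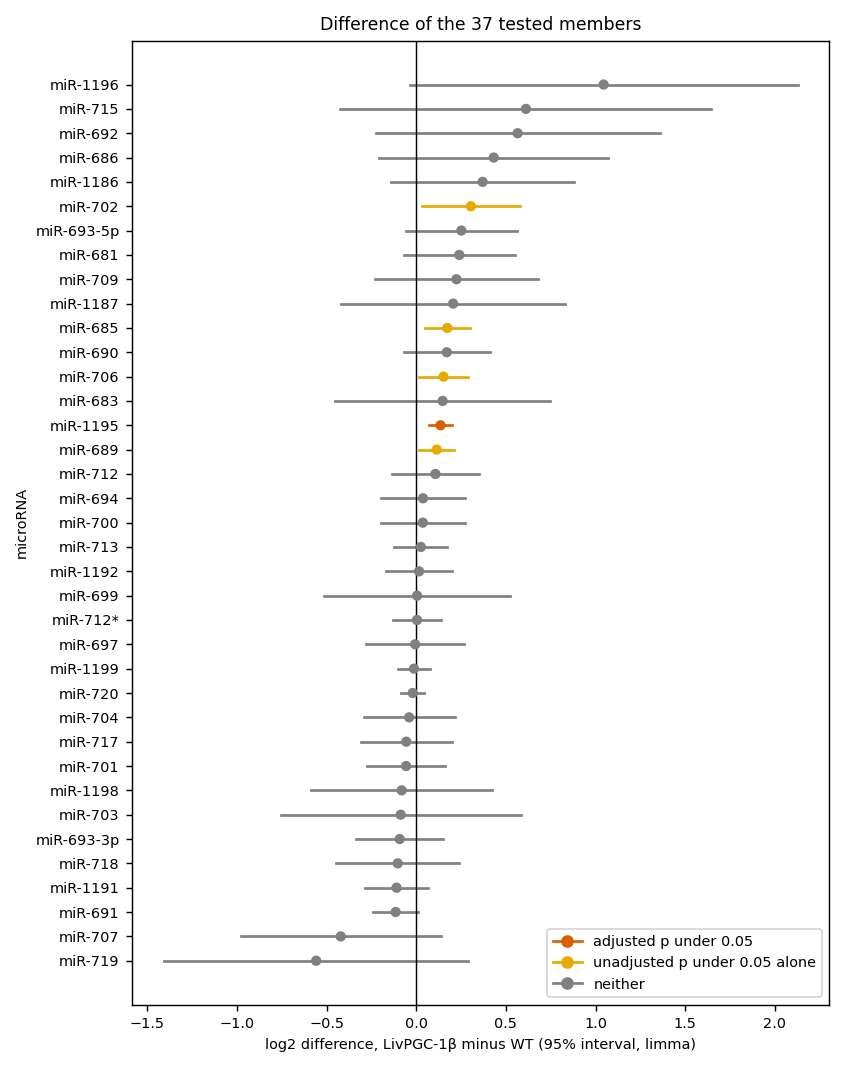
Difference between LivPGC-1β and WT livers on the log2 scale for each of the 37 tested members, with its 95% interval from limma. The interval of miR-1195 is short and lies above 0, while miR-1196, with the highest estimate of 1.04, has an interval that takes in 0.

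miR-1195, which resembles the B1 repeat, was the member that rose. Its log2 intensity was 13.84, 13.87, 13.78, 13.80, 13.84 and 13.88 in LivPGC-1β livers 1 to 6, against 13.67, 13.70, 13.68, 13.74 and 13.70 in WT livers 1 to 5. All 6 LivPGC-1β arrays were above all 5 WT arrays. The difference was 0.14 (standard error 0.028, 95% interval 0.07 to 0.20), a fold of 1.10. Its adjusted p was 0.0426 (limma), beside a two-sided exact permutation p of 0.00216, the smallest that 462 splits allow. Before normalization the groups overlapped: intensities were 15769, 12836, 13882, 13502, 13571 and 15742 on the LivPGC-1β arrays, against 13731, 13460, 13365, 13865 and 14032 on the WT arrays. Without normalization, where the median of all probes moved by −0.14, the difference of miR-1195 was 0.05 (adjusted p = 0.658, limma). In a fit of normalized values that also held chip position it was 0.10 (standard error 0.057, adjusted p = 0.679, limma). Position runs with genotype on this chip, so that fit cannot separate them, and its standard errors are larger. The call was kept with LivPGC-1β 3, LivPGC-1β 4 or WT 4 left out and was lost without any other mouse.

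The other 4 members with a low unadjusted p did not pass after adjustment. miR-685 stood at 11.90, 12.05, 12.02, 12.07, 11.96 and 12.08 in LivPGC-1β livers, against 11.68, 11.96, 11.82, 11.94 and 11.80 in WT livers, a difference of 0.17 (adjusted p = 0.202, limma). Of the 6 LivPGC-1β arrays, 4 were above all WT arrays, and the remaining 2 overlapped with them. miR-689 stood at 11.80, 11.86, 11.94, 11.80, 11.80 and 11.77 in LivPGC-1β livers, against 11.70, 11.59, 11.76, 11.76 and 11.77 in WT livers, a difference of 0.11 (adjusted p = 0.307, limma). Here 5 of 6 LivPGC-1β arrays were above the WT range, but the sign of both this difference and that of miR-685 turned without normalization.

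miR-706, the B1-like sequence within Wnk1 whose first 16 bases were in 28 promoters, was at 13.58, 13.74, 13.61, 13.78, 13.61 and 13.68 in LivPGC-1β livers, against 13.35, 13.46, 13.61, 13.67 and 13.49 in WT livers. The difference was 0.15 (adjusted p = 0.339, limma), with WT 3 and WT 4 inside the LivPGC-1β range. miR-702, from the Plod3 locus, was at 9.51, 9.01, 9.12, 9.55, 9.59 and 9.47 in LivPGC-1β livers, against 8.996, 9.34, 9.08, 8.90 and 9.02 in WT livers, a difference of 0.30 (adjusted p = 0.339, limma). LivPGC-1β arrays 2 and 3 lay within the WT range and the other 4 above it. Without normalization both differences were 0.076. With chip position in the fit that of miR-706 was 0.024 (standard error 0.12) and that of miR-702 was 0.19 (standard error 0.26).

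Of the members with the next lowest p, miR-691, within Robo2, had the only negative difference. It was at 8.46, 8.52, 8.43, 8.43, 8.61 and 8.63 in LivPGC-1β livers, against 8.67, 8.74, 8.50, 8.54 and 8.69 in WT livers, a difference of −0.12 (adjusted p = 0.430, limma). The groups overlapped, and 3 LivPGC-1β arrays were below all WT arrays. The 2 arms of the miR-693 hairpin in Xpo5 had estimates of opposite sign. miR-693-5p was at 9.10, 9.47, 9.68, 9.76, 9.38 and 9.63 in LivPGC-1β livers, against 9.53, 9.48, 9.03, 8.996 and 9.22 in WT livers, which gave 0.25 (adjusted p = 0.465, limma). The estimate of miR-693-3p was −0.09 (adjusted p = 0.728, limma), and for neither arm did the groups separate. Without normalization miR-691 differed by −0.27 and miR-693-5p by 0.025, and with normexp background correction by −0.38 and 0.43.

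**Figure D3:**
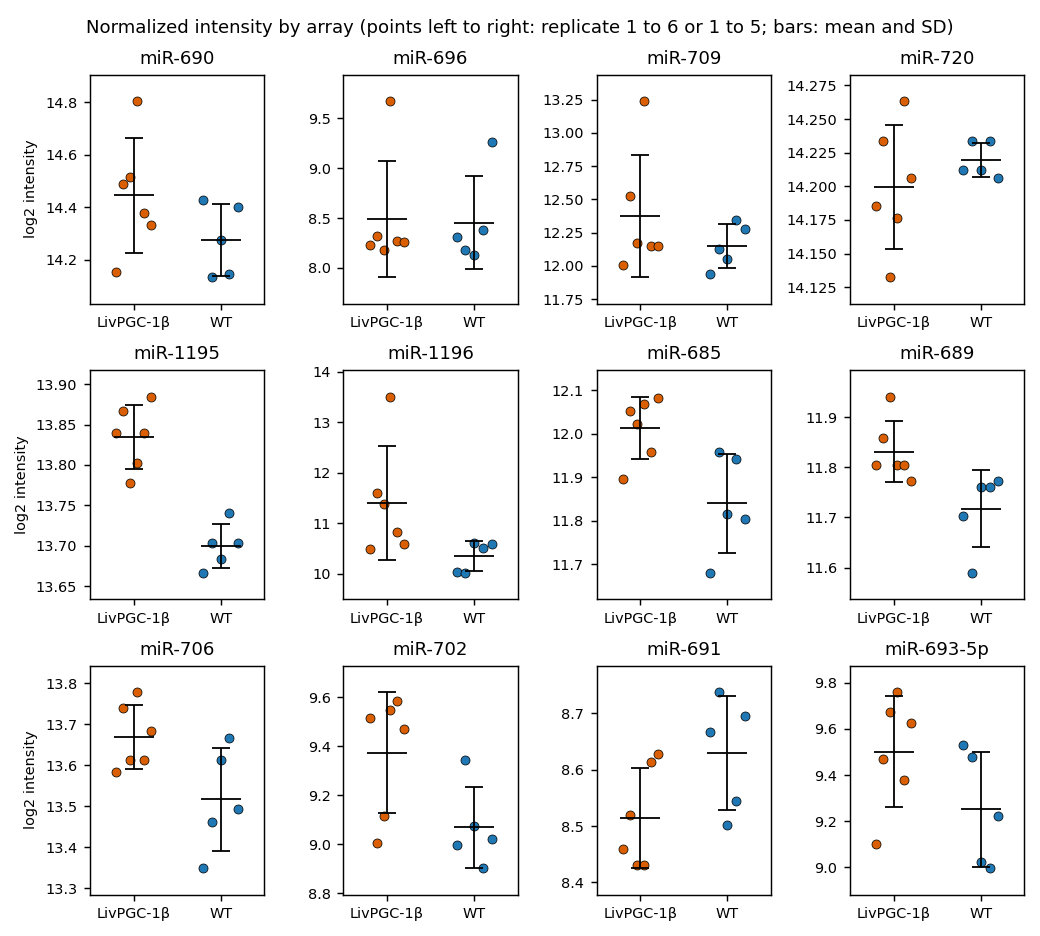
Normalized log2 intensity of 12 members, 1 point an array, LivPGC-1β left of WT, with the mean and SD as bars and a separate vertical scale in each panel that does not start at 0. The groups are apart for miR-1195, and for miR-1196 and miR-709 the LivPGC-1β 4 point is the highest.

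The members named in the choice of the set were followed in every liver. miR-1196, set down as B1-like though its sequence was not matched here, was at 10.50, 11.59, 11.38, 13.51, 10.83 and 10.58 in LivPGC-1β livers, against 10.04, 10.02, 10.61, 10.51 and 10.59 in WT livers. LivPGC-1β 4 was far above the rest, LivPGC-1β 2 and 3 came next, and 2 LivPGC-1β arrays lay within the WT range. The difference, 1.04 (standard error 0.488, 95% interval −0.04 to 2.13), was the highest of the 37 members and did not pass (adjusted p = 0.414, limma; exact permutation p = 0.0519). Without LivPGC-1β 4 it was 0.62 (adjusted p = 0.275, limma).

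miR-709, reported in mouse to act in the nucleus on the precursor of miR-15a and miR-16, was at 12.01, 12.53, 12.17, 13.24, 12.15 and 12.15 in LivPGC-1β livers, against 11.94, 12.13, 12.05, 12.34 and 12.28 in WT livers. The difference was 0.22 (adjusted p = 0.657, limma), the groups overlapped, and LivPGC-1β 4 was again the highest. Without it the difference was 0.05. miR-690 was at 14.15, 14.49, 14.52, 14.80, 14.38 and 14.33 in LivPGC-1β livers, against 14.43, 14.13, 14.27, 14.14 and 14.40 in WT livers, a difference of 0.17 (adjusted p = 0.513, limma). Its 3 highest arrays were LivPGC-1β 2, 3 and 4, and its lowest LivPGC-1β array lay near the low end of the WT arrays. The difference was 0.098 without LivPGC-1β 4 and 0.37 with scaling to the array median.

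miR-720, the transfer RNA match, was at 14.19, 14.23, 14.13, 14.18, 14.26 and 14.21 in LivPGC-1β livers, against 14.21, 14.23, 14.21, 14.23 and 14.21 in WT livers. The groups overlapped, with a difference of −0.02 (95% interval −0.08 to 0.04, adjusted p = 0.790, limma) whose sign turned with scaling to the array median. miR-696, reported in mouse muscle and liver to act on the related coactivator PGC-1α, was at 8.23, 8.33, 8.18, 9.68, 8.27 and 8.26 in LivPGC-1β livers, against 8.31, 8.18, 8.13, 8.38 and 9.27 in WT livers. It was detected only in LivPGC-1β 4 and WT 5 and was not tested.

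By kind of sequence, the 4 members set down as B1-like (miR-709, miR-1186, miR-1195 and miR-1196) all had estimates above 0, with a median of 0.30, and 1 of the 4 was called. For miR-709, miR-1186 and miR-1196 no RefSeq sequence was matched. No member was compared with the B1 sequence here, so other members that resemble it may be missing from this list. With chip position in the fit miR-709 turned to −0.02, with a standard error of 0.42, against 0.20 in the main fit. Over all 493 probes 53.5% lay above 0 and 2.03% were called. Without LivPGC-1β 4 the median of the 4 was 0.16. With miR-706, which was not on that list, the median was 0.22 and 1 of 5 was called. Of the 4, all but miR-1195 had their highest value in LivPGC-1β 4. Of the 3 probes for fragments of structural RNA (miR-720, miR-712 and miR-712*), 0 were called by limma, 0 had an unadjusted p under 0.05, and the median was 0.00. The estimate was 0.11 for miR-712 (adjusted p = 0.684, limma) and 0.00 for miR-712* (adjusted p = 0.985, limma).

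The highest values of the members gathered on 1 array. LivPGC-1β 4 held the highest value of 25 of the 53 members (47.2%), against 50 of the 602 other probes (8.31%). It did so by over 0.5 on the log2 scale for 11 members (20.8%), against 8 other probes (1.33%), and by over 1 for 4 members, against 1 other probe. These shares describe 1 liver and were not tested. No member was highest in LivPGC-1β 1 or in WT 3.

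**Figure D4:**
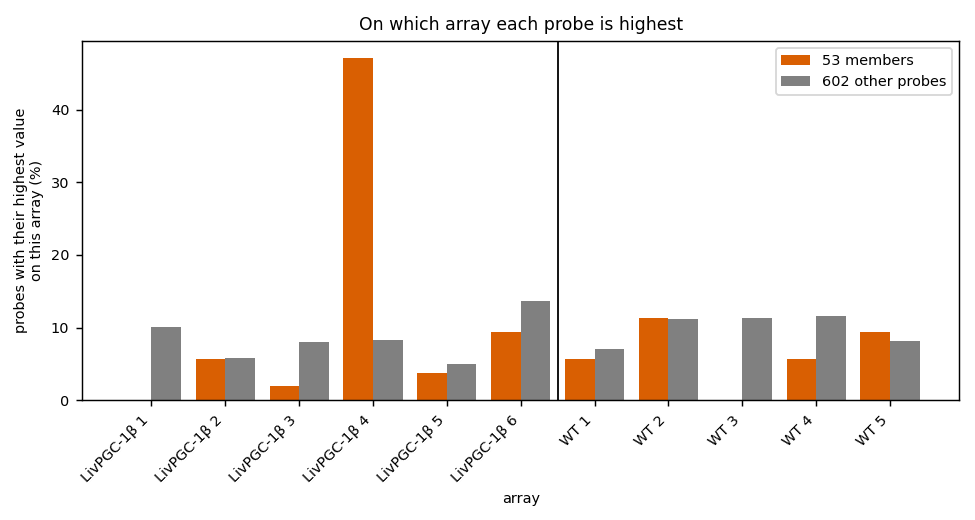
Share of the 53 members and of the 602 other probes (percent, vertical axis) that had their highest normalized value on each array, LivPGC-1β arrays left of the line. The bar of the members at LivPGC-1β 4 reaches 47.2%, while that of the other probes there is 8.31%.

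The 11 were miR-715, miR-1196, miR-714, miR-686, miR-692, miR-1187, miR-682, miR-1186, miR-1194, miR-709 and miR-703, and all 11 were highest in LivPGC-1β 4 before normalization too, as 19 of the 53 members were. miR-715 was at 8.80, 9.19, 9.16, 11.68, 8.97 and 9.17 in LivPGC-1β livers, against 8.84, 8.60, 8.77, 8.96 and 9.23 in WT livers. LivPGC-1β 4 was 5.45-fold above the next array, and before normalization its intensity was 2916 where the next array, WT 5, had 578. The difference between the genotypes was 0.61 (adjusted p = 0.601, limma) and 0.18 without LivPGC-1β 4. For miR-1196, LivPGC-1β 4 was 3.78-fold above the next array, with 10655 against 2719 before normalization.

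miR-692, found within ferritin light chain pseudogenes, was at 10.21, 11.34, 11.36, 12.34, 10.68 and 10.63 in LivPGC-1β livers, against 10.71, 10.80, 10.18, 9.995 and 10.95 in WT livers. LivPGC-1β 4 was the highest, with LivPGC-1β 3 and 2 next, and the other 3 LivPGC-1β arrays lay within the WT range. The difference was 0.57 (adjusted p = 0.507, limma) and 0.32 without LivPGC-1β 4. miR-686, within the proteasome gene Psmb5, was at 8.42, 8.70, 8.98, 10.12, 8.54 and 8.27 in LivPGC-1β livers, against 8.44, 8.54, 8.31, 8.44 and 8.30 in WT livers, a difference of 0.43 (adjusted p = 0.544, limma) and 0.18 without LivPGC-1β 4. The same 3 LivPGC-1β arrays led, and LivPGC-1β 6 lay below all WT arrays. But miR-686 was detected on only 4 LivPGC-1β arrays and 1 WT array, and not on LivPGC-1β 2 or 6. Part of this order is thus of undetected values.

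miR-1186 was at 9.79, 10.22, 10.25, 11.09, 9.81 and 9.60 in LivPGC-1β livers, against 9.66, 9.85, 9.75, 9.83 and 9.69 in WT livers. LivPGC-1β 2, 3 and 4 were above all WT arrays and LivPGC-1β 6 below them. The difference was 0.37 (adjusted p = 0.505, limma) and 0.18 without LivPGC-1β 4. miR-1187, a run of mostly alternating U and G, was at 9.38, 9.89, 9.73, 10.79, 9.11 and 9.06 in LivPGC-1β livers, against 9.43, 9.61, 9.15, 9.52 and 9.56 in WT livers, with the same 3 arrays on top and 2 LivPGC-1β arrays below all WT arrays. Its difference of 0.21 (adjusted p = 0.784, limma) became −0.02 without LivPGC-1β 4. miR-703 was at 11.49, 11.98, 12.62, 13.30, 11.82 and 11.56 in LivPGC-1β livers, against 12.13, 12.24, 12.25, 12.40 and 12.06 in WT livers. LivPGC-1β 3 and 4 were above the WT range and the other 4 below it, so the difference was −0.09 (adjusted p = 0.932, limma) and −0.32 without LivPGC-1β 4.

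LivPGC-1β 2, 3 and 4, which lay side by side at chip positions 7, 8 and 9, were the 3 highest arrays for 7 of the 37 tested members (18.9%), namely miR-1186, miR-1187, miR-1196, miR-681, miR-686, miR-690 and miR-692. The same held for 20 of the 456 other tested probes (4.39%). These 3 arrays were picked after the values were seen, so the shares only describe them. The part of chip position in the pattern was not tested. The other probes over 0.5 higher in LivPGC-1β 4 were miR-302d, miR-801, miR-466i and miR-466g and 4 candidate small RNAs from sequencing. LivPGC-1β 4 detected 495 probes and had a median intensity of 743 before normalization, within the range of the other arrays. Array weights, which fall as an array's probes stray from their group, were lowest for WT 5 (0.455) and LivPGC-1β 4 (0.543). They come from the same values and so are no separate check. The summed striated muscle microRNAs of LivPGC-1β 4, 7168, were the highest of the LivPGC-1β arrays. In WT 1, whose summed muscle microRNAs were 46391, 0 members and 10 other probes were highest by over 0.5. The part of muscle RNA in the members' values was not tested.

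**Figure D5:**
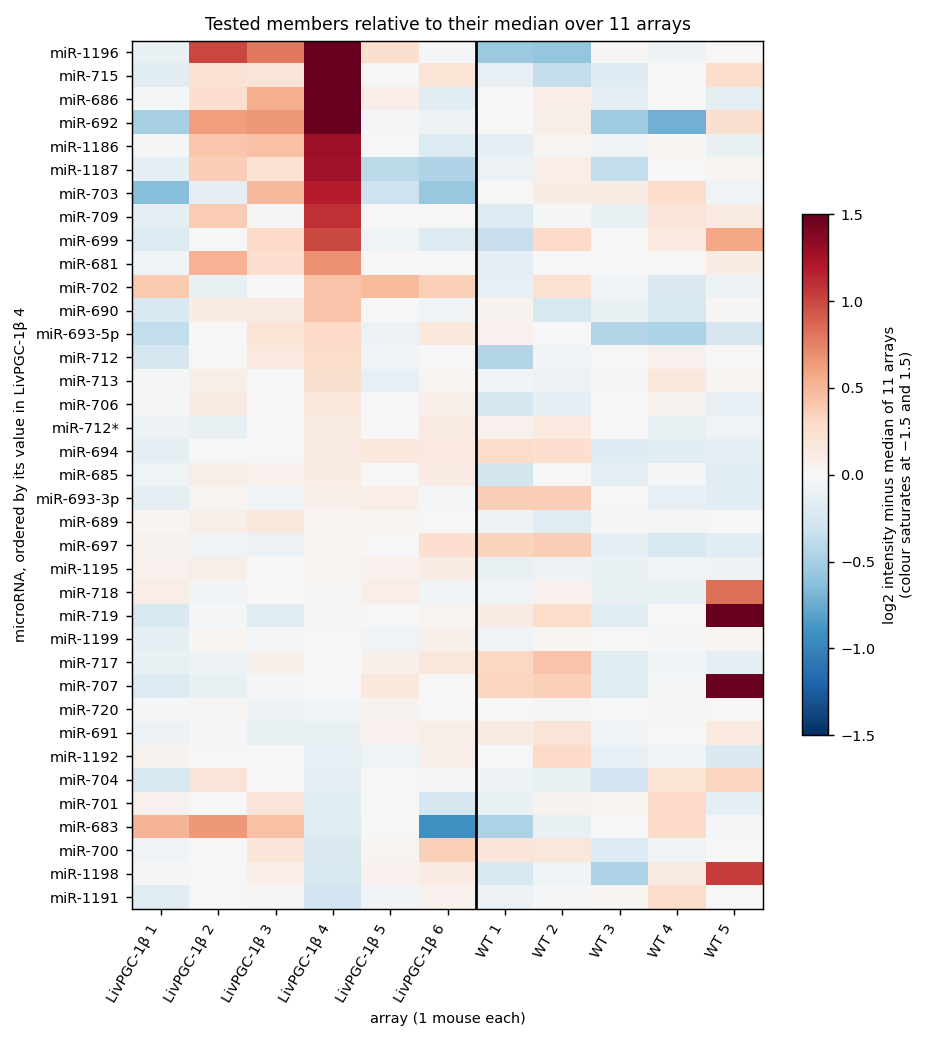
Normalized log2 intensity of the 37 tested members minus each member's median over the 11 arrays, LivPGC-1β arrays left of the line, members ordered by their value in LivPGC-1β 4, with colours saturating at 1.5. The darkest column at the top is LivPGC-1β 4, with miR-1196 first, and WT 5 holds the dark cells of miR-719 and miR-707.

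WT 5 was the only other array on which a member was highest by over 0.5, which was so for miR-719, miR-707, miR-1198 and miR-718, against 21 other probes. miR-719 was at 10.15, 10.35, 10.19, 10.39, 10.37 and 10.42 in LivPGC-1β livers, against 10.50, 10.64, 10.19, 10.37 and 12.63 in WT livers. WT 5 was 3.97-fold above the next array, and the other 4 WT arrays overlapped with LivPGC-1β. The difference, the lowest of the 37 members, was −0.56 (adjusted p = 0.559, limma) and −0.12 without WT 5. miR-707, within Akt1s1, was at 9.44, 9.52, 9.62, 9.64, 9.79 and 9.65 in LivPGC-1β livers, against 9.96, 9.995, 9.46, 9.62 and 11.12 in WT livers, with WT 5 again on top and the groups overlapping. Its difference was −0.42 (adjusted p = 0.498, limma) and −0.15 without WT 5.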

How the data were processed

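Intensities and detection p-values of every probe on 11 arrays of 1 Illumina Universal MicroRNA BeadChip were exported by the authors from Genome Studio. The deposited intensity values were neither normalized nor background subtracted, and the deposited detection p-value compares each probe with negative controls. The authors' table of quantile-normalized intensity was used as an alternative.

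Intensities were quantile normalized over all probes and arrays and set on the log2 scale without background subtraction. The 493 probes detected (p of 0.01 or less) on 5 or more arrays were fitted with limma 3.58.1 in R 4.3.3, LivPGC-1β against WT, with Benjamini-Hochberg adjustment and a threshold of 0.05. The methods name no test for the arrays. Single members also had a two-sided exact permutation test over 462 splits. Figures were drawn with Python 3.11.15 and matplotlib 3.10.9. The fit was also run on simulated data with independent normal noise. These held no outlying array and no effect of chip position, so they do not bear on the call of miR-1195. An array gives no read depth, and the number of arrays limits the precision.

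Values on every array are given for miR-690, miR-696, miR-709, miR-720, miR-1195 and miR-1196, for members called and for the 8 tested members with the lowest unadjusted p. Other members with values in full were named after their values were seen. The members and lists were chosen with earlier results of these data known. Microarray values of other samples and the qPCR were not used here. Alternatives covered normalization, background, filters, variance, replicate block, chip position and each mouse left out.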

Additional observations from a re-analysis of the deposited data

Results flagged for a closer look

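In 5 of 40 groups of arrays examined (20 members, each in LivPGC-1β and in WT livers), 1 array stood apart from the others of its group by Dixon's 95% limit, where chance gives about 1 in 20. LivPGC-1β 4 stood apart for miR-715 at 11.68 (next LivPGC-1β array 9.19), for miR-1196 at 13.51 (next 11.59) and for miR-696 at 9.68 (next 8.33). WT 5 stood apart for miR-719 at 12.63 (next WT array 10.64) and for miR-696 at 9.27 (next 8.38). The 20 members include some that were named because 1 array was high.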

How the results depend on the processing

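The call of miR-1195 was lost, leaving 0 members called by limma, under 6 of the 12 planned settings other than the fits that left out each mouse in turn. It was also lost on leaving out 8 of the 11 mice in turn. Its difference and adjusted p (limma) were 0.05 and 0.658 on unnormalized values, 0.30 and 0.187 on values scaled to equal array medians, 0.12 and 0.155 with cyclic loess, 0.14 and 0.0558 with normexp background correction, 0.13 and 0.315 with the replicate block, and 0.10 and 0.679 with chip position as a covariate. The replicate block also left out LivPGC-1β 6, which has no WT mouse of its number. Leaving out that mouse alone gave miR-1195 an adjusted p of 0.0784 (limma). Chip position runs with genotype, so the fit with position cannot separate them. With 1 mouse left out, 0 to 1 members were called and miR-1195 differed by 0.12 to 0.15 (adjusted p 0.0366 to 0.117, limma). Its call was kept without LivPGC-1β 3, LivPGC-1β 4 or WT 4 and lost without any other mouse. Without both LivPGC-1β 4 and WT 5, a setting chosen after seeing the data, 0 members were called (miR-1195: 0.14, adjusted p = 0.0590, limma). It was kept with the authors' table, the 3 other detection filters, the trended and robust variances and the array weights. The cause was not tested.

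Signs turned for miR-685 (−0.031), miR-689 (−0.11) and miR-1187 (−0.057) without normalization and for miR-720 (0.19) with scaling to the array median. They also turned for miR-703 (0.026) with the replicate block and for miR-709 (−0.018, standard error 0.42) with chip position. Without LivPGC-1β 6 alone, which the replicate block left out, miR-703 was already at 0.028. With 1 mouse left out, miR-1187 ran from −0.019 (without LivPGC-1β 4) to 0.32 and miR-703 from −0.32 to 0.033 (without LivPGC-1β 1). Without both LivPGC-1β 4 and WT 5, miR-703 differed by −0.35. The median of all probes lay at −0.14 on unnormalized and at 0.11 on median-scaled values.

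Same-numbered mice did not deviate together over all probes (correlations −0.13 to 0.07 over 493 probes). Such correlations cannot show whether the numbers pair mice for a few probes. Members detected on every array numbered 28 to 29 and on no array 8 to 11 with 1 mouse left out. Dim members have little signal over background, which limits what their differences can show.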
